A study of Mus musculus with 10 samples.

Results

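The gene set described here comprises 8 genes of the stress hormone system: the glucocorticoid receptor *Nr3c1*, the mineralocorticoid receptor *Nr3c2*, their chaperone *Fkbp4* and coactivator *Ncoa1*, the steroid-reactivating enzyme *Hsd11b1*, and the corticotropin-releasing hormone (CRH) genes *Crh*, *Crhr1* and *Crhbp*. The members were chosen by name and not by a threshold on measured values, although earlier results of these data were known, and all 8 are among the 22000 protein-coding genes of the count table. RNA-seq was performed on the prefrontal cortex (PFC) of 5 wild-type (WT) and 5 *Zbtb16* knockout (KO) mice, 7 weeks old and labelled male, with 1 library per mouse. The KO mice carried the *lu* allele of the B6.C3-Zbtb16lu/J strain, a single-base change that makes a stop codon, on both copies. The mutation is present in every cell from conception, so that levels in the adult PFC cannot be tied to the loss of ZBTB16, a zinc finger transcription factor, in any single cell type. WT and KO mice shared the sex label, age, tissue and library kit, and the labels name no treatment.

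Glucocorticoids released from the adrenal gland enter brain cells and bind the glucocorticoid receptor and the mineralocorticoid receptor, which are held by HSP90 complexes in the cytoplasm and act in the nucleus as transcription factors. FKBP52, the product of *Fkbp4*, joins the HSP90 complex and favours hormone binding, its relative FKBP51, the product of *Fkbp5*, lowers it, and NCOA1 links the bound receptor to transcription. The enzyme 11beta-HSD1, encoded by *Hsd11b1*, regenerates active glucocorticoid inside the cell. CRH, which starts the adrenal response when released from the hypothalamus, is also made by cortical interneurons, acts locally through CRHR1, a receptor coupled to cAMP, and is bound and held back by CRH-binding protein.

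Each library held between 30220122 and 51231439 counts, and 14344 genes passed the filter on low counts. *Zbtb16* mRNA was lower in KO mice, at 47.4 ± 4.95 CPM (counts scaled to a common library size by TMM; SD, n = 5) against 78.9 ± 7.23 CPM in WT mice (SD, n = 5), with an edgeR adjusted p of 2.8e-05, and the groups did not overlap. KO mouse 3 went against the sex label: *Ddx3y*, *Eif2s3y*, *Kdm5d* and *Uty*, which lie on the Y chromosome, had 1 count in all in this library, against 4376 to 8182 in the other 9. Results are therefore given with and without KO mouse 3. The RNA integrity number (RIN) was 9.5 to 9.8 in 6 mice, 3 of each genotype, and 8.1 to 8.3 in KO mice 3 and 5 and WT mice 3 and 4. The labelled tissue was checked against its markers. The summed level of 8 genes of cortical excitatory neurons was 2478 to 2886 CPM in KO and 2396 to 2650 CPM in WT mice. These were the general marker *Slc17a7* with upper-layer genes, so that the sum is not an upper-layer level. By contrast, the summed level of 9 hypothalamic markers was 1.69 to 4.88 CPM in KO mice and 0.862 to 2.89 CPM in WT mice, close to 0 beside the cortical lists. Markers of striatal projection neurons were present, with a summed level over 13 genes of 465 to 688 CPM in KO and 437 to 855 CPM in WT mice. The sum over 11 deep-layer cortical markers was 625 to 665 CPM in KO and 586 to 649 CPM in WT mice. Sums over different genes do not compare amounts of tissue. KO mouse 5 stood apart from the other KO libraries, with a chi-square per degree of freedom of 23.0 to 29.9 against each of them, where the other KO pairs had 7.08 to 13.4 and the WT pairs 5.67 to 17.3. This measure was taken on raw counts and can grow with depth, and KO mouse 5 had the most counts (51231439). These are bulk samples, in which fewer cells of a type and less RNA per cell cannot be told apart.

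All 8 genes were expressed above the filter, and their order was read on a scale of CPM per kilobase of exon, since CPM alone favours long transcripts. *Fkbp4* had the highest length-scaled level, with 40.3 ± 0.934 CPM per kb in WT mice (SD, n = 5). *Ncoa1* (17.9 ± 0.246 CPM per kb) and *Nr3c1* (17.3 ± 0.782 CPM per kb) followed, and their WT ranges met. *Crhr1* (12.7 ± 1.09 CPM per kb) and *Crhbp* (11.3 ± 0.501 CPM per kb) formed the next pair, again with ranges that met. *Nr3c2* (5.06 ± 0.262 CPM per kb), *Hsd11b1* (4.83 ± 0.876 CPM per kb) and *Crh* (4.65 ± 0.376 CPM per kb) had the lowest levels, and neighbours in this order did not differ beyond their spread. The same order of the 8 genes, except that *Crh* and *Hsd11b1* changed places, was found in KO mice, where *Hsd11b1* had 3.67 ± 0.817 and *Crh* 3.75 ± 0.636 CPM per kb (SD, n = 5). The glucocorticoid receptor transcript was therefore more abundant than that of the mineralocorticoid receptor in every mouse, with a ratio of length-scaled levels of 3.43 ± 0.282 in the WT and 3.07 ± 0.339 in the KO group (SD, n = 5 each), and the ratios of the groups overlapped.

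**Figure D1:**
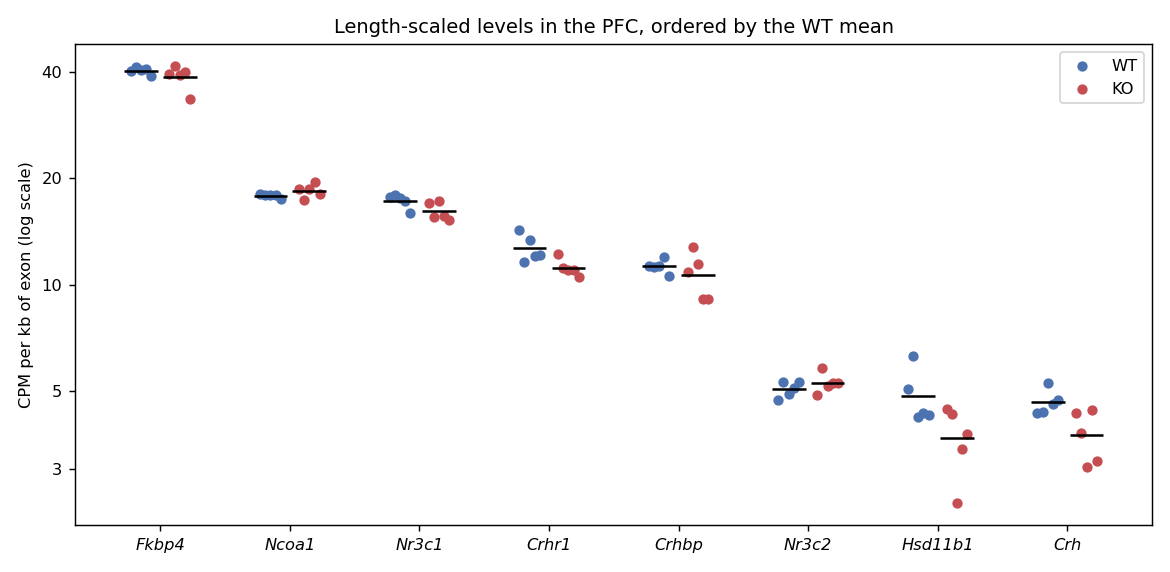
Level of each of the 8 genes in CPM per kb of exon (logarithmic axis), with 1 point per mouse, WT in blue and KO in red, and a bar at each group mean, ordered by the WT mean. *Fkbp4* lies near 40 CPM per kb in both genotypes, while *Nr3c2*, *Hsd11b1* and *Crh* lie near or under 5 CPM per kb.

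To examine whether loss of *Zbtb16* altered the stress hormone genes, the genotypes were set against each other by the quasi-likelihood test of edgeR. The model held genotype and 3 surrogate variables, weights given to each mouse from the expression data to absorb differences between libraries that no label records. None of the members passed the threshold of 0.05 after Benjamini-Hochberg adjustment over all tested genes: 0 of 8 were called, where 0.844% of all tested genes were. By unadjusted p under 0.05, 2 of 8 passed, *Crhr1* (lower in KO) and *Ncoa1* (higher in KO), where 10.6% of all genes did. Without surrogate variables edgeR again called 0 of 8, with 0.209% of all genes called, and 3 of 8 had an unadjusted p under 0.05 (*Hsd11b1*, *Crh* and *Crhr1*, all lower in KO), where 8.02% of all genes did. DESeq2 called 0 of 8 with surrogate variables, where it called 1.60% of all genes, and 0 of 8 without them, where it called 0.767%. limma also called 0 of 8, but it called only 0.0558% of all genes with a pseudocount of 1 and 0% with 0.1, so that little can be read from that count. Without KO mouse 5 edgeR also called 0 of 8, with log2 fold changes of -0.22 for *Hsd11b1*, -0.23 for *Crh* and -0.13 for *Crhr1* and a smallest adjusted p of 0.405. Of the 8 members, 6 had a negative log2 fold change (75.0%, against 51.9% of all tested genes), with a median of -0.09 over the 8 genes and of -0.004 over all genes. For 0 of 8 members did the CPM of the 5 KO mice lie apart from that of the 5 WT mice, a separation that 1.58% of all tested genes showed. Exact two-sided permutation tests of the mean CPM were also run for each member, 8 tests in all, with unadjusted p-values of which the smallest that 5 against 5 mice allow is 0.00794.

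**Figure D2:**
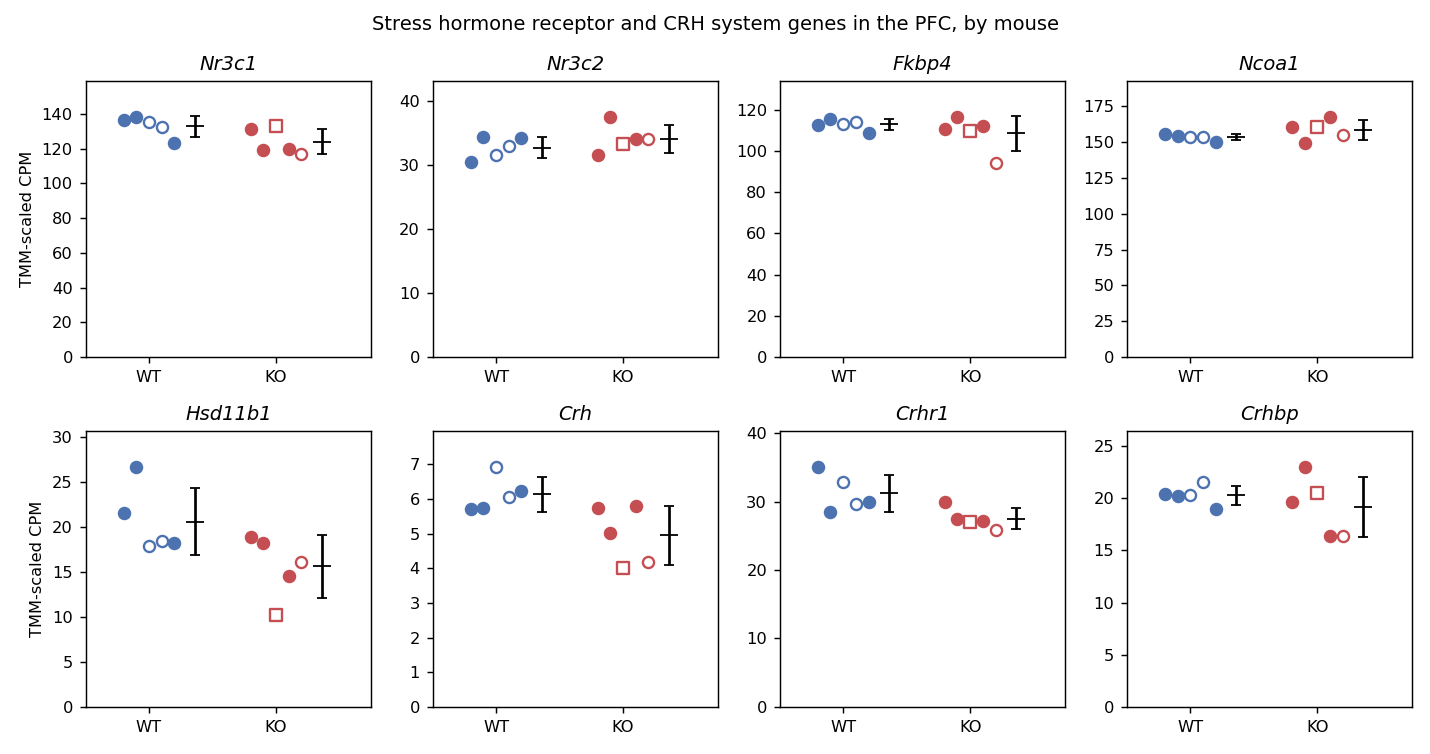
TMM-scaled CPM of the 8 genes in each mouse, with the mean and SD of each genotype in black beside the points. Open symbols mark mice with a RIN under 9.5 and the square marks KO mouse 3, and in every panel the KO points overlap with the WT points.

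*Nr3c1* encodes the glucocorticoid receptor (ENSMUSG00000024431.15, chromosome 18, 39410545 to 39519421 of GRCm38, minus strand). Its CPM was 131, 119, 133, 119.9 and 117 in KO mice 1 to 5, and 136, 138, 135, 132 and 123 in WT mice 1 to 5. KO mice 2, 4 and 5 lay below every WT mouse, whereas KO mice 1 and 3 lay within the WT range. The mean was 124 ± 7.32 CPM in KO and 133 ± 6.01 CPM in WT mice (SD, n = 5 each), or 93.3% of the WT level (exact permutation test, p = 0.0635). The edgeR log2 fold change was -0.07 with a standard error (SE) of 0.04 (adjusted p = 0.551), and its 95% interval ran from 90.6% to 100.7% of the WT level. Without KO mouse 3 the KO mean was 122 ± 6.31 CPM (exact permutation test, p = 0.0317), and the edgeR adjusted p was 0.639. The receptor's transcript was read with 3813 counts or more in each library.

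*Nr3c2*, the mineralocorticoid receptor gene (ENSMUSG00000031618.13, chromosome 8, 76899442 to 77245012, plus strand), had 31.6, 37.5, 33.3, 34.2 and 34.1 CPM in KO mice 1 to 5, and 30.5, 34.4, 31.7, 33.0 and 34.3 CPM in WT mice 1 to 5. Only KO mouse 2 lay above the WT range, and the groups overlapped almost entirely. Mean levels of 34.1 ± 2.16 CPM in KO and 32.8 ± 1.70 CPM in WT mice (SD, n = 5 each) differed by less than the spread between mice (exact permutation test, p = 0.317). The edgeR log2 fold change was 0.03 ± 0.05 (SE, adjusted p = 0.886), with a 95% interval of 94.8% to 110.4% of the WT level. Leaving out KO mouse 3 gave 34.3 ± 2.44 CPM in KO mice (exact permutation test, p = 0.349).

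*Fkbp4* encodes FKBP52, the HSP90-bound immunophilin that favours receptor activity (ENSMUSG00000030357.10, chromosome 6, 128429735 to 128438677, minus strand). It had 111, 116, 109.8, 112 and 94.0 CPM in KO mice 1 to 5, and 113, 116, 113, 114 and 109 CPM in WT mice 1 to 5. KO mouse 5, the mouse with the lowest RIN, lay below all others, while the other 4 KO mice were spread around the WT range. The means were 109 ± 8.50 CPM in KO and 113 ± 2.61 CPM in WT mice (SD, n = 5 each; exact permutation test, p = 0.373), and without KO mouse 3 the KO mean was 108 ± 9.78 CPM (exact permutation test, p = 0.476). The edgeR log2 fold change was -0.03 ± 0.04 (SE, adjusted p = 0.863), with a 95% interval of 93.1% to 103.5%. In the 6 mice with a RIN of 9.5 or above, fitted without surrogate variables, the direction turned (log2 fold change 0.01, adjusted p = 0.992). In all 10 mice without surrogate variables the log2 fold change was -0.06 (adjusted p = 0.841).

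*Ncoa1* encodes a histone acetyltransferase that nuclear receptors recruit (ENSMUSG00000020647.10, chromosome 12, 4247362 to 4477182, minus strand). KO mice 1 to 5 had 160.4, 149, 160.1, 167 and 155 CPM, and WT mice 1 to 5 had 155, 154, 154, 153 and 149.6 CPM. KO mice 1, 3 and 4 were above all WT mice, KO mouse 2 was below them, and the WT mice were tightly grouped, with a coefficient of variation of 1.38% against 4.29% in KO mice. The mean was 158 ± 6.80 CPM in KO and 153 ± 2.11 CPM in WT mice (SD, n = 5 each; exact permutation test, p = 0.119), and 158 ± 7.77 CPM in KO mice without KO mouse 3 (exact permutation test, p = 0.222). With surrogate variables the edgeR log2 fold change was 0.07 ± 0.03 (SE, unadjusted p = 0.0488, adjusted p = 0.467), with a 95% interval of 100.03% to 110.6% of the WT level. Without them it was 0.05 ± 0.04 (SE, adjusted p = 0.811).

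*Hsd11b1*, the gene of the enzyme that converts inert 11-keto steroids back into active glucocorticoid (ENSMUSG00000016194.14, chromosome 1, 193221634 to 193264075, minus strand), had the largest fold difference of the 8 members with 3 surrogate variables, although *Crh* exceeded it in 4 of the 25 alternatives (with 4 surrogate variables and without KO mouse 4, KO mouse 5 or WT mouse 2). Its CPM was 18.9, 18.2, 10.2, 14.5 and 16.1 in KO mice 1 to 5, against 21.5, 26.7, 17.9, 18.5 and 18.2 in WT mice 1 to 5. KO mice 3, 4 and 5 lay below every WT mouse, all 5 KO mice lay below the WT mean, and WT mouse 2 stood well above the rest. KO mice averaged 15.6 ± 3.47 CPM and WT mice 20.5 ± 3.72 CPM (SD, n = 5 each), 76.0% of the WT level, without reaching significance (exact permutation test, p = 0.0714). The edgeR log2 fold change was -0.32 ± 0.15 (SE, unadjusted p = 0.0506, adjusted p = 0.472), with a 95% interval from 64.0% to 100.1% of the WT level. Without surrogate variables it was -0.40 ± 0.15 (SE, adjusted p = 0.520). KO mouse 3 had the lowest value, and without it the log2 fold change was -0.18 (adjusted p = 0.737) and the KO mean 16.9 ± 2.01 CPM (exact permutation test, p = 0.143). The difference in mean was found in both RIN classes, at 17.2 against 22.1 CPM in the 6 mice of 9.5 or above and 13.2 against 18.2 CPM in the other 4. *Lamb3* lies on the opposite strand across 42442 bases of this gene but shares 0 exonic bases with it in the annotation.

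*Crh*, which encodes the CRH peptide (ENSMUSG00000049796.4, chromosome 3, 19693401 to 19695396, minus strand), was the member read with the fewest counts, 130 to 274 per library. Its level was 5.73, 5.01, 4.01, 5.81 and 4.19 CPM in KO mice 1 to 5, and 5.71, 5.74, 6.93, 6.06 and 6.23 CPM in WT mice 1 to 5. KO mice 2, 3 and 5 were below every WT mouse, and KO mice 1 and 4 lay just above the lowest WT values. The mean was 4.95 ± 0.840 CPM in KO and 6.13 ± 0.497 CPM in WT mice (SD, n = 5 each), 80.7% of the WT level (exact permutation test, p = 0.0397). At the lowest count the counting error alone was 8.77% of the value, beside a coefficient of variation of 17.0% between KO mice and 8.10% between WT mice. In edgeR the log2 fold change was -0.26 ± 0.14 (SE, adjusted p = 0.529), with a 95% interval of 68.1% to 101.9%, and it was -0.17 (adjusted p = 0.796) without KO mouse 3, when the exact permutation test gave p = 0.0794. Leaving out any of 5 other mice also brought the exact permutation p to 0.0794. In the 6 mice with a RIN of 9.5 or above, the means were 5.52 CPM in KO and 5.89 CPM in WT mice, whereas in the other 4 mice they were 4.10 and 6.50 CPM, and the part of RNA integrity in this contrast was not tested. Markers of cortical interneurons, the cells that make CRH in the cortex, also had a lower mean in KO mice. Their summed level over 18 genes was 1684 ± 58.4 CPM in KO (1603 to 1767) and 1765 ± 40.7 CPM in WT mice (1716 to 1804, SD, n = 5 each). However, 0 of the 18 were called lower in KO and 1 (*Tac2*) was called higher, where 0.600% of all tested genes were called higher. None of the 18 markers was at 0, and their part in the level of *Crh* was not tested.

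**Figure D3:**
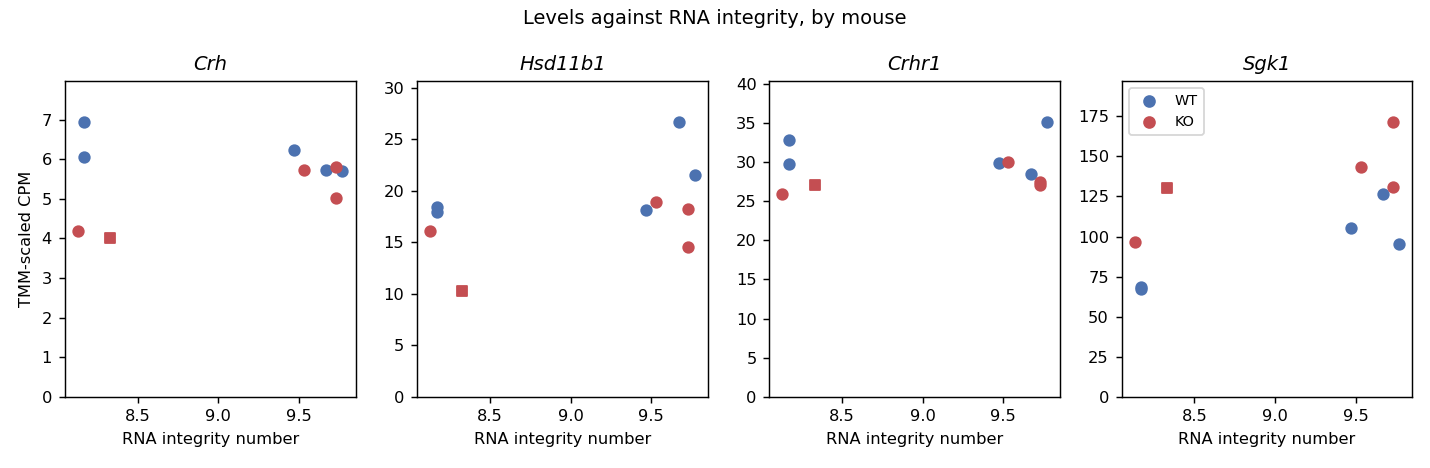
CPM of *Crh*, *Hsd11b1*, *Crhr1* and the glucocorticoid target *Sgk1* against the RNA integrity number of each mouse, WT in blue, KO in red and KO mouse 3 as a square (points set 0.03 apart in RIN by genotype for legibility). For *Crh*, *Hsd11b1* and *Crhr1* the genotypes lie apart among the 4 mice with a RIN under 9.5 and overlap among the other 6. With only 2 mice of each genotype under 9.5, *Nr3c2*, *Fkbp4* and *Ncoa1* (not drawn) also lie apart there. Within each genotype *Sgk1* is lowest in mice with a RIN under 9.5 (WT mice 3 and 4, and KO mouse 5).

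*Crhr1* encodes the main receptor for CRH in the cortex (ENSMUSG00000018634.10, chromosome 11, 104132855 to 104175523, plus strand) and had the smallest p-value among the 8 genes with 3 surrogate variables. With RIN in their place, edgeR gave *Hsd11b1* a smaller unadjusted p than *Crhr1* (0.00755 against 0.0150). The replicate block in their place did the same (0.00125 against 0.00877). *Crhr1* levels of 29.98, 27.4, 27.0, 27.1 and 25.9 CPM were found in KO mice 1 to 5, and of 35.1, 28.5, 32.8, 29.7 and 29.9 CPM in WT mice 1 to 5. KO mice 2 to 5 lay below every WT mouse, and only KO mouse 1 overlapped with the WT range. The mean was 27.5 ± 1.52 CPM in KO and 31.2 ± 2.69 CPM in WT mice (SD, n = 5 each), 88.1% of the WT level (exact permutation test, p = 0.0317). In edgeR the log2 fold change was -0.16 ± 0.07 (SE, unadjusted p = 0.0263, adjusted p = 0.374), with a 95% interval of 81.3% to 98.5% of the WT level. Without KO mouse 3 it was -0.13 (adjusted p = 0.636), and the KO mean was 27.6 ± 1.73 CPM (exact permutation test, p = 0.0635). The same p of 0.0635 was obtained when any of 5 other mice was left out in the exact permutation test. Within RIN classes the means were 28.2 against 31.2 CPM in the 6 mice of 9.5 or above and 26.4 against 31.2 CPM in the other 4.

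*Crhbp*, the gene of the secreted protein that binds CRH (ENSMUSG00000021680.8, chromosome 13, 95431371 to 95444924, minus strand), had 19.6, 23.0, 20.5, 16.4 and 16.3 CPM in KO mice 1 to 5, and 20.4, 20.2, 20.3, 21.5 and 19.0 CPM in WT mice 1 to 5. The KO mice spread on both sides of the WT range, with KO mouse 2 above it and KO mice 4 and 5 below it. Means of 19.2 ± 2.86 CPM in KO and 20.3 ± 0.903 CPM in WT mice (SD, n = 5 each) did not differ beyond this spread (exact permutation test, p = 0.444; without KO mouse 3, p = 0.365). The edgeR log2 fold change was -0.10 ± 0.07 (SE, adjusted p = 0.640), with a 95% interval of 84.3% to 102.7%. The ratio of *Crhbp* to *Crh*, on the length-scaled levels, was 2.91 ± 0.673 in KO and 2.44 ± 0.226 in WT mice (SD, n = 5 each), while for *Crhr1* to *Crh* it was 3.03 ± 0.436 and 2.74 ± 0.313, with overlapping groups in both cases.

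**Figure D4:**
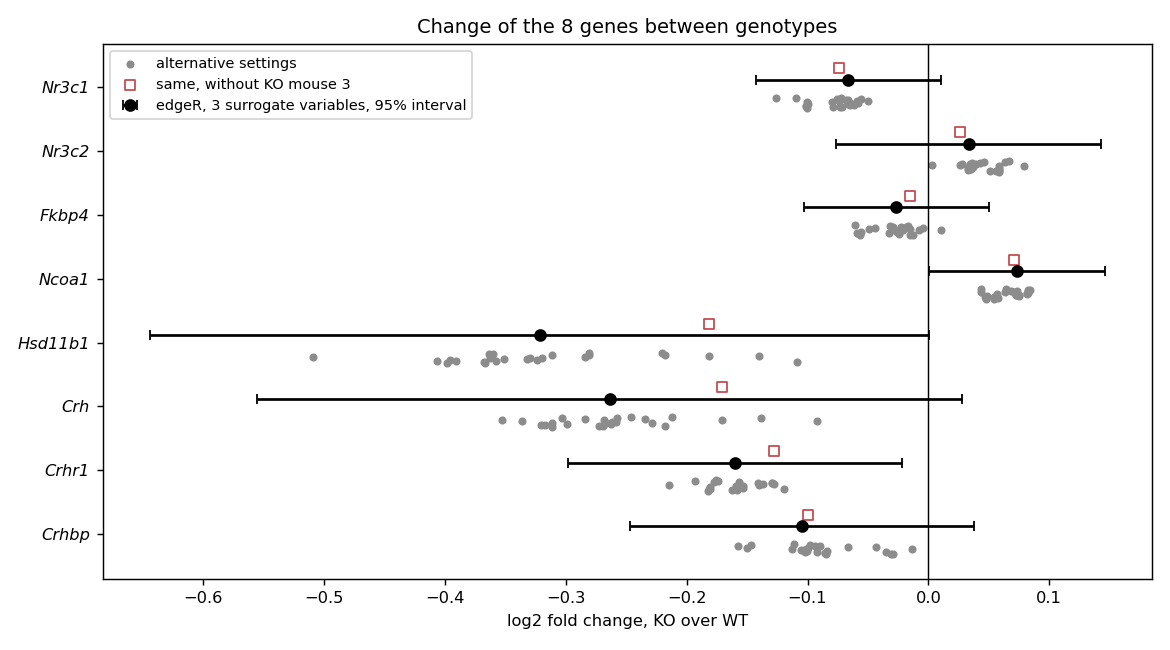
Change of each gene as log2 fold change, KO over WT. Black points and bars give the edgeR value with 3 surrogate variables and its 95% interval, red squares the value without KO mouse 3, and grey points the 25 alternative settings. The intervals are widest for *Hsd11b1* and *Crh* and narrowest for *Ncoa1*, *Nr3c1* and *Fkbp4*, and only those of *Crhr1* and *Ncoa1* leave out 0.

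Promoter sequence was available for 6 of the 8 members (*Nr3c2*, *Fkbp4*, *Ncoa1*, *Hsd11b1*, *Crhr1* and *Crhbp*) from RefSeq, build GRCm38.p6, as 250 bases before to 50 after the transcription start, and *Nr3c1* and *Crh* were not matched. The sequences of 3 are printed: *Hsd11b1* and *Crhr1*, the members with the largest difference and the smallest p-value with 3 surrogate variables, and *Fkbp4*, the member with the highest level. They are given on the strand of the gene, 5′ to 3′, at chr1:193242311-193242610 (minus strand), chr11:104132531-104132830 (plus strand) and chr6:128438607-128438906 (minus strand). The RefSeq start of *Hsd11b1* lies inside the longer gene of the Gencode annotation. Capitals mark the CCAAT box (CCAAT), the GC box (GGGCGG), bound by SP1, and the palindrome GAANNTTC of heat shock elements, on either strand.
*Hsd11b1*: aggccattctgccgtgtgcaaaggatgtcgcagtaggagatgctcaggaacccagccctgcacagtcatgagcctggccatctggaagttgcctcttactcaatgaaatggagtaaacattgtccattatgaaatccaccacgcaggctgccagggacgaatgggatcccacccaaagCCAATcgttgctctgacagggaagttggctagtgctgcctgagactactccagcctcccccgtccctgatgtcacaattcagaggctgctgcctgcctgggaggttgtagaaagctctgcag
*Crhr1*: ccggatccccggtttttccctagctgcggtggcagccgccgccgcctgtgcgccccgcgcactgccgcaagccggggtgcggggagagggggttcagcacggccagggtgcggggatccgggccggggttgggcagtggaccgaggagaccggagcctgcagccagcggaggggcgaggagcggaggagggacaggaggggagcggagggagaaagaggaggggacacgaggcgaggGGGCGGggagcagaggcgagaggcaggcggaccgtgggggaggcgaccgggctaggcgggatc
*Fkbp4*: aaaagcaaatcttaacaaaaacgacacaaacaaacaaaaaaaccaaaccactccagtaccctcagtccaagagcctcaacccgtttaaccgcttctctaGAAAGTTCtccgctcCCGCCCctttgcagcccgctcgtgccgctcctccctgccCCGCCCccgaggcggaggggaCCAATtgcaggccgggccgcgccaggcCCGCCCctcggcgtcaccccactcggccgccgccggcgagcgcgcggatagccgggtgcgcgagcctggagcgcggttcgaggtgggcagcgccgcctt

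The letters GAANNTTC, the core to which heat shock factors bind, were found in the promoters of *Fkbp4* and *Nr3c2*, in both at 151 bases before the start, and in 7.86% of all 32851 RefSeq promoters. The CCAAT box was found in 3 of the 6 (*Hsd11b1*, *Fkbp4* and *Nr3c2*) and in 37.4% of all promoters, and the GC box in 4 of the 6 (*Crhr1*, *Fkbp4*, *Nr3c2* and *Ncoa1*) and in 35.7% of all. The full glucocorticoid response element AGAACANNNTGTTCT, by which the receptors bind DNA as dimers, was in 0 of the 6 windows and in 0.00913% of all promoters. Its right arm TGTTCT, contained in the full element, was in 1 of the 6 (*Ncoa1*, on the opposite strand, 39 bases after the start) and in 19.0% of all. The cAMP response element TGACGTCA was in 0 of the 6 and in 1.79% of all, and TGACG, contained in it, was in 2 of the 6 (*Fkbp4* and *Crhbp*) and in 20.8% of all. The letters TATAAA, those of a TATA box, were found in 1 of the 6 (*Crhbp*, 31 bases after the start, and so not in the place of a TATA box of this start) and in 13.6% of all. Each motif was searched on both strands, and a match describes the letters of the window, not a bound site. The GC content of the windows ran from 48.0% in *Crhbp* to 84.7% in *Ncoa1*.

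The wider pathway was examined through 6 lists. Among glucocorticoid target genes, whose transcription the activated receptor induces in many tissues, 9 of 19 were higher in KO mice with surrogate variables in the model and 0 were lower, where 0.600% of all tested genes were called higher. The 9 were *Sgk1*, a kinase (log2 fold change 0.77 ± 0.05, SE, adjusted p = 2.6e-06), *Pdk4*, which restrains glucose oxidation (0.81 ± 0.11, adjusted p = 0.00131), the stress-induced mTOR inhibitor *Ddit4* (0.57 ± 0.08, adjusted p = 0.00266), the NF-kB inhibitor *Nfkbia* (0.47 ± 0.07, adjusted p = 0.00254), *Fkbp5*, *Tsc22d3*, *Sult1a1*, *Cebpd* and *Arrdc2*. All 19 had a positive log2 fold change, with a median of 0.33 beside -0.004 over all genes, and *Plin4*, which was not called, had the largest value (0.90 ± 0.29, adjusted p = 0.207). The count depended on the surrogate variables: without them 1 of 19 was called (*Pdk4*, 0.73, adjusted p = 0.0316), 17 of 19 were positive and the median was 0.25. With the striatal marker score in place of surrogate variables 0 of 19 were called. KO mouse 5, the library that stood apart, was the lowest KO mouse for 7 of the 9 called genes (*Sgk1*, *Pdk4*, *Nfkbia*, *Fkbp5*, *Tsc22d3*, *Sult1a1* and *Arrdc2*), and without it 10 of 19 were called. Without KO mouse 3, 8 of 19 were called, and in the 6 mice with a RIN of 9.5 or above 0 of 19, where edgeR called 1 gene of all. The fit of these 6 mice held no surrogate variables, unlike the fits that called 9 and 8 of 19.

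*Sgk1* shows how the counts behind these calls were distributed. Its CPM was 143, 131, 130.3, 171 and 96.3 in KO mice 1 to 5, and 95.4, 127, 68.4, 67.3 and 105 in WT mice 1 to 5. WT mice 3 and 4 and KO mouse 5, each with a RIN under 9.5, were lowest within their genotype, and the groups overlapped. Within RIN classes, *Sgk1* averaged 148 against 109 CPM in mice of 9.5 or above and 113 against 67.9 CPM in the others, higher in KO in both. *Pdk4* ranged from 13.2 to 18.1 CPM in KO and from 6.71 to 10.9 CPM in WT mice, without overlap, as for 1.58% of all tested genes. The part of RNA integrity in the level of these genes was not tested.

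Of 17 receptor chaperones other than *Fkbp4*, 1 was called, where 0.844% of all tested genes were. It was *Fkbp5*, whose product lowers the affinity of the receptor for hormone and which is itself a glucocorticoid target. *Fkbp5* was higher in KO mice (log2 fold change 0.51 ± 0.06, SE, adjusted p = 0.000630). Its CPM was 80.0, 62.7, 65.1, 93.3 and 50.4 in KO mice 1 to 5, and 54.2, 63.8, 44.6, 46.2 and 71.8 in WT mice 1 to 5. The groups overlapped widely, and without surrogate variables the log2 fold change was 0.32 (adjusted p = 0.627), while without KO mouse 3 it was 0.50 (adjusted p = 0.00191). The cochaperone *Bag1* had the next largest value (-0.07 ± 0.04, SE, adjusted p = 0.600), and the median of the list was -0.003.

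Receptor coregulators, the family to which *Ncoa1* belongs, had 0 of 18 called by edgeR, and 0 by DESeq2 and limma, with a median log2 fold change of 0.005. Of the 18, 3 had an unadjusted p under 0.05 in edgeR, where 10.6% of all tested genes did and 0.844% were called. The deacetylase *Sirt1* (-0.17 ± 0.07, SE, adjusted p = 0.432) and the acetyltransferase *Kat2b* (-0.13 ± 0.06, SE, adjusted p = 0.492) had the largest values. Of 23 genes for other steroid receptors, steroid synthesis and transport, 14 passed the filter and 0 were called (0 with an unadjusted p under 0.05; 0 by DESeq2 and limma). The largest values in this list were those of *Star*, which carries cholesterol into mitochondria (0.43 ± 0.21, SE, adjusted p = 0.483), and the estrogen receptor *Esr1* (0.29 ± 0.20, SE, adjusted p = 0.674). *Hsd11b2*, which inactivates glucocorticoid and so opposes *Hsd11b1*, did not pass the filter, and its highest value was 0.0332 CPM, less than the 3 counts taken as the floor of detection. For signalling from the CRH receptor through cAMP, 0 of 25 genes were called by edgeR, and 0 by DESeq2 and limma. Of the 25, 5 had an unadjusted p under 0.05 in edgeR, where 10.6% of all tested genes did. The adenylyl cyclase *Adcy8* (-0.19 ± 0.09, SE, adjusted p = 0.454) and the CREB coactivator *Crtc2* (-0.13 ± 0.07, SE, adjusted p = 0.532) had the largest absolute values. Both were lower in KO, but a positive log2 fold change was found for 16 of the 25, and for 6898 of the 14344 tested genes. Without KO mouse 3, edgeR called 0 genes in each of these 3 lists.

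In the CRH family, vasopressin and POMC list, 7 of 15 genes passed the filter. Of these 7, 1 was called, where 0.844% of all tested genes were: the oxytocin receptor *Oxtr* (log2 fold change 0.70 ± 0.15, SE, adjusted p = 0.0308). *Oxtr* had 7.93, 11.5, 7.77, 6.32 and 7.30 CPM in KO mice 1 to 5, and 4.38, 5.13, 4.79, 3.56 and 6.14 CPM in WT mice 1 to 5. All KO mice were above all WT mice, by a narrow margin between KO mouse 4 and WT mouse 5. The CPM of the genotypes lay apart for 1.58% of all tested genes. Without KO mouse 3 the log2 fold change was 0.69 (adjusted p = 0.0913), and without surrogate variables 0.76 (adjusted p = 0.123). The melanocortin receptor *Mc4r* followed (0.61 ± 0.20, SE, adjusted p = 0.216). The other CRH receptor, *Crhr2*, was at 0.123 to 1.28 CPM in KO and 0.111 to 0.676 CPM in WT mice, and the urocortins *Ucn*, *Ucn2* and *Ucn3*, its ligands, did not pass the filter.

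**Figure D5:**
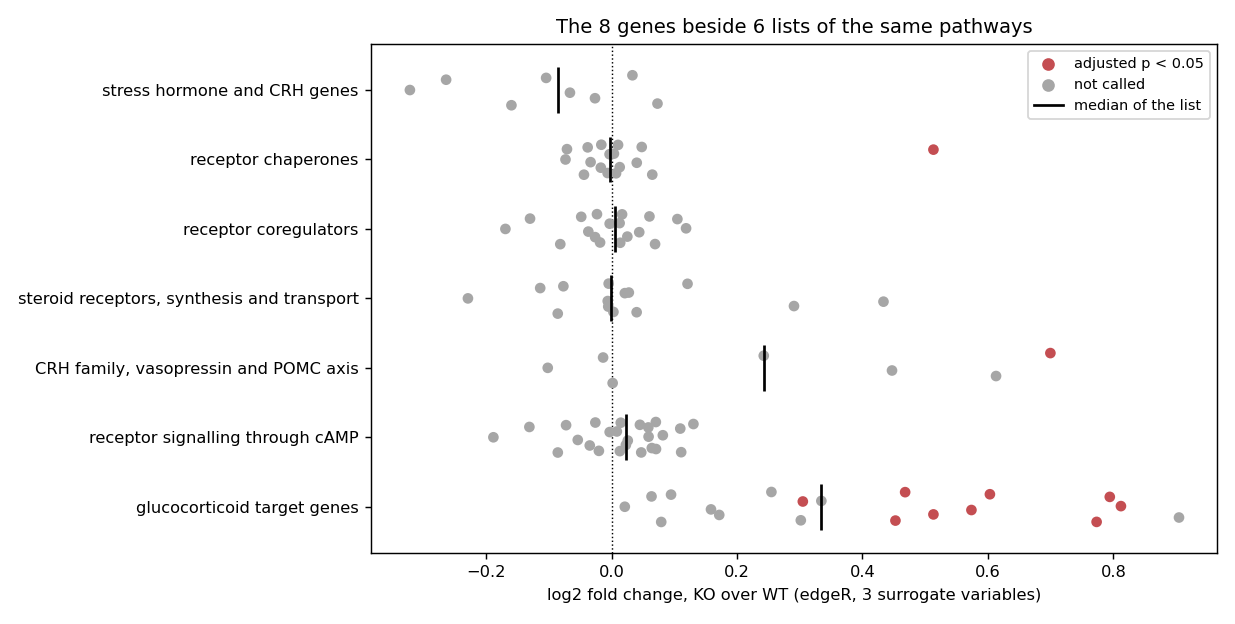
Log2 fold change, KO over WT, of the 8 stress hormone and CRH genes and of the tested genes in 6 pathway lists, 1 point per gene, with the list median as a black bar and genes with an adjusted p under 0.05 in red. The 9 called glucocorticoid target genes, with *Fkbp5* again among the chaperones, and *Oxtr* lie to the right, and none of the 8 genes is red.

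Across the 10 mice, the levels of the members (as log2(CPM + 1)) were compared in pairs, as a description over libraries that share genotype, RNA integrity and scaling. Of the 28 pairs, *Fkbp4* and *Crhbp* were the most alike (Pearson's r = 0.70, Spearman's rho = 0.67), with r = 0.66 after removal of the genotype means. *Nr3c2* and *Crhr1* were the most opposed (r = -0.73, rho = -0.58), with r = -0.72 after removal of the genotype means. For the receptors *Nr3c1* and *Nr3c2* r was -0.64, and -0.56 after removal of the genotype means, but the rank correlation was weaker (rho = -0.38). No pair was tested.

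For each member, the 3 tested genes with the most similar pattern were found by Pearson's r over the same 10 mice. They were *Sel1l3* (r = 0.97), *Ier5* (0.94) and *Sh3bp5* (0.94) for *Nr3c1*. For *Nr3c2* they were *Cdk5rap2* (r = 0.94), *Hdc* (0.94) and *Rab27a* (0.93), and for *Fkbp4* they were *Ttbk2* (r = 0.98), *Mettl16* (0.97) and *Unc80* (0.96). *Ncoa1* had the lowest values, with *Add2* (r = 0.89), *Ptk2b* (0.87) and *Bcl2l13* (0.87). *Hsd11b1* was most like *Psmd7* (r = 0.95), *Sparcl1* (0.91) and *Zfp455* (0.90). In the CRH system, *Sars* (r = 0.91) and *Nfx1* (0.89) were among the 3 genes most like *Crh*. *Crhr1* was most like *Il6ra* (r = 0.94), *Pgbd5* (0.92) and *Podxl2* (0.91), and *Crhbp* like *Lgr4* (r = 0.94), *Kcnj16* (0.93) and *Noxred1* (0.93). None of the genes named here was called between the genotypes. These correlations describe the pattern over 10 libraries only.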

How the data were processed

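Stranded mRNA libraries, 1 per mouse, were sequenced as 101 bp paired reads. The authors aligned reads to mm10 with STAR (2.7.1a) and used HTSeq (0.9.1) to count uniquely mapped reads in exons (Gencode M21, protein-coding). The deposited file holds raw counts of 22000 genes. Whether HTSeq used strand is not given in the sources used here, so overlapping genes on either strand are uncertain. Groups and replicate numbers came from the labels.

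Counts were analysed with edgeR (4.0.16, R 4.3.3): TMM, its filter on low counts, a quasi-likelihood test with genotype plus 3 surrogate variables from sva (3.50.0; log2(CPM + 1), seed 1), and Benjamini-Hochberg adjustment over 14344 genes. Standard errors were derived from the test statistic. DESeq2 (1.42.0), limma (3.58.1), other covariates, scalings and filters, and leaving out each mouse were alternatives. Exact permutation tests and correlations used scipy (1.17.1), numpy (2.4.6) and pandas (2.3.3) in Python 3.11.15, and figures matplotlib (3.10.9). Positions and exon lengths came from Gencode M21 of GRCm38. The scripts were tested on simulated counts.

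A count of 3, taken as the floor, equals 0.0586 to 0.0993 CPM and covers counting error only. The labels do not say whether mice came from separate litters, and each mouse was treated as 1 replicate. All 20 pairs of libraries within a genotype differed beyond sampling noise (chi-square per degree of freedom of 5.67 or more).

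The members, the lists and the tests were chosen with earlier results of these data known. Named genes were all 8 members, every called gene of a list and its 2 largest changes, the 3 genes most like each member (clone-type symbols passed over), *Zbtb16* and Y-linked genes. One gene that this rule chose is not reported here. One further setting, without surrogate variables and KO mouse 3 together, was added after seeing the data.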

Additional observations from a re-analysis of the deposited data

Results flagged for a closer look

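Of the 56 genes chosen by the naming rule, tested in 112 groups of 5 mice, 10 groups had a mouse whose gap to the nearest other, as a share of the range, was above Dixon's critical value, where chance flags about 1 in 20 groups. None of the 8 members was among them. The Y-linked genes were flagged in KO mouse 3, labelled male, with 0.0308 CPM for *Ddx3y* and 0 CPM for *Eif2s3y*, *Kdm5d* and *Uty*. This mouse was also low for *Cebpd* (4.31 CPM, nearest other 6.24 CPM) and for *Psmd7* (86.5 CPM, nearest other 95.3 CPM), the gene most like *Hsd11b1*. KO mouse 2 was high for *Adcy8* (31.3 CPM, nearest other 21.6 CPM). KO mouse 5 was low for *Unc80* (343 CPM, nearest other 404 CPM), among the 3 genes most like *Fkbp4*. WT mouse 2 was low for *Crtc2* (18.3 CPM, nearest other 21.4 CPM). WT mouse 5 was low for *Sh3bp5* (59.9 CPM, nearest other 67.1 CPM), among the 3 genes most like *Nr3c1*.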

How the results depend on the processing

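Under all 25 alternatives 0 of 8 members were called, and 199 of 200 alternative log2 fold changes kept their direction, with adjusted p-values of 0.199 or more. The exception was *Fkbp4* in mice with a RIN of 9.5 or above (log2 fold change 0.0102, and 0.673 CPM for the difference of means, KO minus WT). The edgeR fit of mice with a RIN of 9.5 or above held no surrogate variables, here and below. The cause of changes was not tested. The log2 fold change of *Hsd11b1* ran from -0.51 to -0.11, of *Crh* from -0.35 to -0.09 of *Crhr1* from -0.21 to -0.12, of *Crhbp* from -0.16 to -0.01, of *Nr3c1* from -0.13 to -0.05, of *Nr3c2* from 0.003 to 0.08, of *Ncoa1* from 0.04 to 0.08 and of *Fkbp4* from -0.06 to 0.01. Leaving out 1 mouse moved it by over 1.5 times for *Hsd11b1* (-0.51, -0.18 and -0.14 without KO mouse 1, 3 and 4), *Crh* (-0.17 and -0.14 without KO mouse 3 and WT mouse 3), *Crhbp* (-0.04, -0.07 and -0.16 without KO mouse 4, KO mouse 5 and WT mouse 3), *Ncoa1* (0.04 without KO mouse 4), *Nr3c1* (-0.11 without WT mouse 5), *Nr3c2* (0.08, 0.003 and 0.06 without KO mouse 1, KO mouse 2 and WT mouse 5) and *Fkbp4* (from -0.05 without KO mouse 2 to -0.004 without KO mouse 5), and by less for *Crhr1*.

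The count over all genes (121) was 30 without surrogate variables, 34 with 1, 57 with 2, 38 with RIN as covariate, 16 with the striatal score, 229 with DESeq2 and surrogate variables, 8 and 0 with limma at pseudocounts of 1 and 0.1, 1 at a RIN of 9.5 or above, and 13 without surrogate variables and KO mouse 3. With the replicate block it was 24 over all genes, 0 chaperones, 0 of the CRH family list and 1 glucocorticoid target. Replicate numbers join different mice, and deviations of same-numbered mice correlated at -0.106 to 0.173. These values were not set beside those of mice with different numbers, so they cannot decide whether the numbers pair the samples.

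Glucocorticoid targets (9) numbered 1 without surrogate variables, 1 with 1, 2 with 2, 2 with RIN, 0 with the striatal score, 3 with DESeq2 without surrogate variables, 1 and 0 with limma, 0 at a RIN of 9.5 or above and 0 without surrogate variables and KO mouse 3. *Fkbp5* among chaperones (1) was 0 in the same settings, and *Oxtr* (1) was 0 in them except with 2 surrogate variables and with DESeq2. Leaving out 1 mouse gave 39 (without WT mouse 3) to 248 (without KO mouse 2) genes, 5 to 11 glucocorticoid targets, and 0 or 1 of the CRH family list (0 without KO mouse 1 or 3 or WT mouse 3 or 4).

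For the difference of mean CPM (KO minus WT), *Nr3c1* passed 0.05 in the exact permutation test with library totals in place of TMM (-9.44, p = 0.0476). Leaving out 1 mouse gave -11.4 to -7.17 for *Nr3c1* (p under 0.05 in the exact permutation test without KO mouse 1, KO mouse 3 or WT mouse 5), 2.91 to 7.46 for *Ncoa1* (under 0.05 without KO mouse 2) and -5.77 to -3.41 for *Hsd11b1* (under 0.05 without KO mouse 1). It gave -1.40 to -0.948 for *Crh*, with p above 0.05 without KO mouse 2, 3 or 5 or WT mouse 3, 4 or 5, and -4.39 to -2.75 for *Crhr1*, with p above 0.05 without KO mouse 2, 3, 4 or 5 or WT mouse 1 or 3. At a RIN of 9.5 or above, where the exact permutation test of 3 against 3 mice cannot go below p = 0.1, *Crh* (-0.375) and *Crhr1* (-2.99) did not pass. *Crh*, with 130 to 274 counts, was the member most limited by depth.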
